A study of Danio rerio with 23 samples.

Results

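Wnt ligands are secreted proteins and Frizzled proteins are their cell surface receptors, and the genes of both families were followed here in bulk mRNA sequencing of zebrafish retinae after light-induced retinal damage (LIRD) and in undamaged controls (CTRL). Members were all rows of the count table whose zebrafish gene symbol starts with wnt or fzd followed by a digit. This rule found 39 of the 25281 genes in the table, namely 26 ligand genes and 13 receptor genes. Of the 39 rows, 12 share 6 symbols (fzd3, fzd7, fzd8, fzd9, wnt7a and wnt8a), which are duplicated copies that the naming table did not separate, and these are given with their Ensembl identifiers. The receptor gene fzd4 was not analysed here.

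The study exposed larvae to intense white light and compared their retinae with those of unexposed larvae. The table holds 8 LIRD libraries (replicates 1, 2, 4, 5, 6, 9, 10 and 11) and 9 CTRL libraries (replicates 1, 2, 3, 4, 5, 6, 8, 10 and 11). According to the methods, pigmented fish of the Tg(fli:gal4;UAS:mCherry) reporter line and of the TU wild type at 4 days post-fertilization received 50000 lux for 3.5 h and recovered for 48 h, and each library came from a pool of 50 retinae. The sample labels instead describe adult fish, 15000 lux for 24 h and dissection straight after, and they name no pools, so the age, dose and interval behind these counts carry that conflict. The paper names the reporter line for its immunostaining of Müller glia. Whether the sequenced retinae came from 1 or both of the 2 fish lines is not given in the sources used here. In that reporter line the fli promoter drives Gal4, which turns on mCherry.

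Wnt proteins are acylated by Porcupine, carried to the cell surface by Wntless and bound by a Frizzled together with a co-receptor. In the branch that uses β-catenin, binding through Lrp5 or Lrp6 stops the Axin, Apc and Gsk3 complex from destroying β-catenin, which then acts with Tcf and Lef factors on genes such as axin2 and lef1. Other Wnt and Frizzled pairs act through Dishevelled on planar cell polarity and cell movement without β-catenin. In the fish retina this pathway is known for its activity in the ciliary marginal zone, the growing rim of the eye, and for its part in the proliferation of Müller glia after injury.

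Library totals lay between 97506021 and 150347385 counts in LIRD and between 70932504 and 144932681 counts in CTRL. All 39 members passed the filter on low counts, with between 4 counts (a wnt8a copy) and 12238 counts (a fzd3 copy) in a single library. All 22 retinal marker rows examined were detected in every library, and their summed level was 11005 to 18124 CPM (counts per 1000000 counts of the library) in LIRD and 10447 to 20032 CPM in CTRL. Marker transcripts of tissues other than retina were also detected, among them markers of tissues outside the head. Where these transcripts came from was not tested. The 6 skin epithelium genes summed to 6127 to 18311 CPM in LIRD and 7943 to 13841 CPM in CTRL. The 5 exocrine pancreas and liver genes summed to 2904 to 9863 CPM in LIRD and 2406 to 4655 CPM in CTRL. LIRD replicate 1 had the highest skin, pancreas and liver and red blood cell sums. LIRD replicates 1, 2, 4 and 9 had skin sums of 11621 to 18311 CPM, against 6127 to 9052 CPM in the other LIRD libraries. Their pancreas and liver sums were 5121 to 9863 CPM, against 2904 to 3775 CPM in the others. CTRL was divided too: replicates 1, 2, 8 and 10 had pancreas and liver sums of 4245 to 4655 CPM, against 2406 to 2645 CPM in the others. The skin sums of these CTRL replicates were 11059 to 13841 CPM, against 7943 to 10589 CPM. Skeletal muscle genes summed to 2445 to 6375 CPM in LIRD and 3227 to 5256 CPM in CTRL. Lens genes summed to 641 to 4581 CPM in LIRD and 582 to 3124 CPM in CTRL. The part of these tissues in the members' levels was not tested, and in whole retinae fewer cells of a type and less RNA per cell cannot be told apart.

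No Wnt ligand or Frizzled receptor gene passed the test between LIRD and CTRL once p-values were adjusted over all genes. A gene was called differentially expressed (DEG) when its change exceeded 1.5-fold in either direction and its false discovery rate (FDR, Benjamini-Hochberg over all genes) was under 0.05. By edgeR's quasi-likelihood test 0 of 39 members were called, beside 9 of 22503 genes tested (0.04%). DESeq2 called 0 members and 78 genes (0.315%), and limma-voom called 0 members and 15 genes. At an unadjusted p under 0.05 stood 3 members (7.69%), against 7.64% of all genes, so the members' share lay at the background. Of these, wnt11f2 and wnt10b were higher in LIRD (background 4.9% of genes) and 1 copy of wnt8a was lower (background 2.74%). No member had groups that did not overlap, a pattern seen in 0.0711% of genes.

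The intervals show how large a difference these data leave room for. The 95% confidence interval of the log2 fold change lay inside a 1.5-fold change in either direction for 13 of 13 receptors and 21 of 26 ligands, together 34 members (87.2%), against 71.2% of all genes. The 5 ligands whose intervals reached past a 1.5-fold change were wnt11f2, both copies of wnt8a, wnt7ba and wnt3a. Log2 fold changes (LIRD over CTRL) were positive for 7 and negative for 19 of the 26 ligands, with a median of -0.07. Among the 13 receptors 8 were positive and 5 negative, with a median of 0.04. Over all genes tested 53.8% were positive and the median was 0.02, and upper-quartile scaling and DESeq2's size factors left the receptor split at 8 and 5 and the ligand split within 1 gene.

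**Figure D1:**
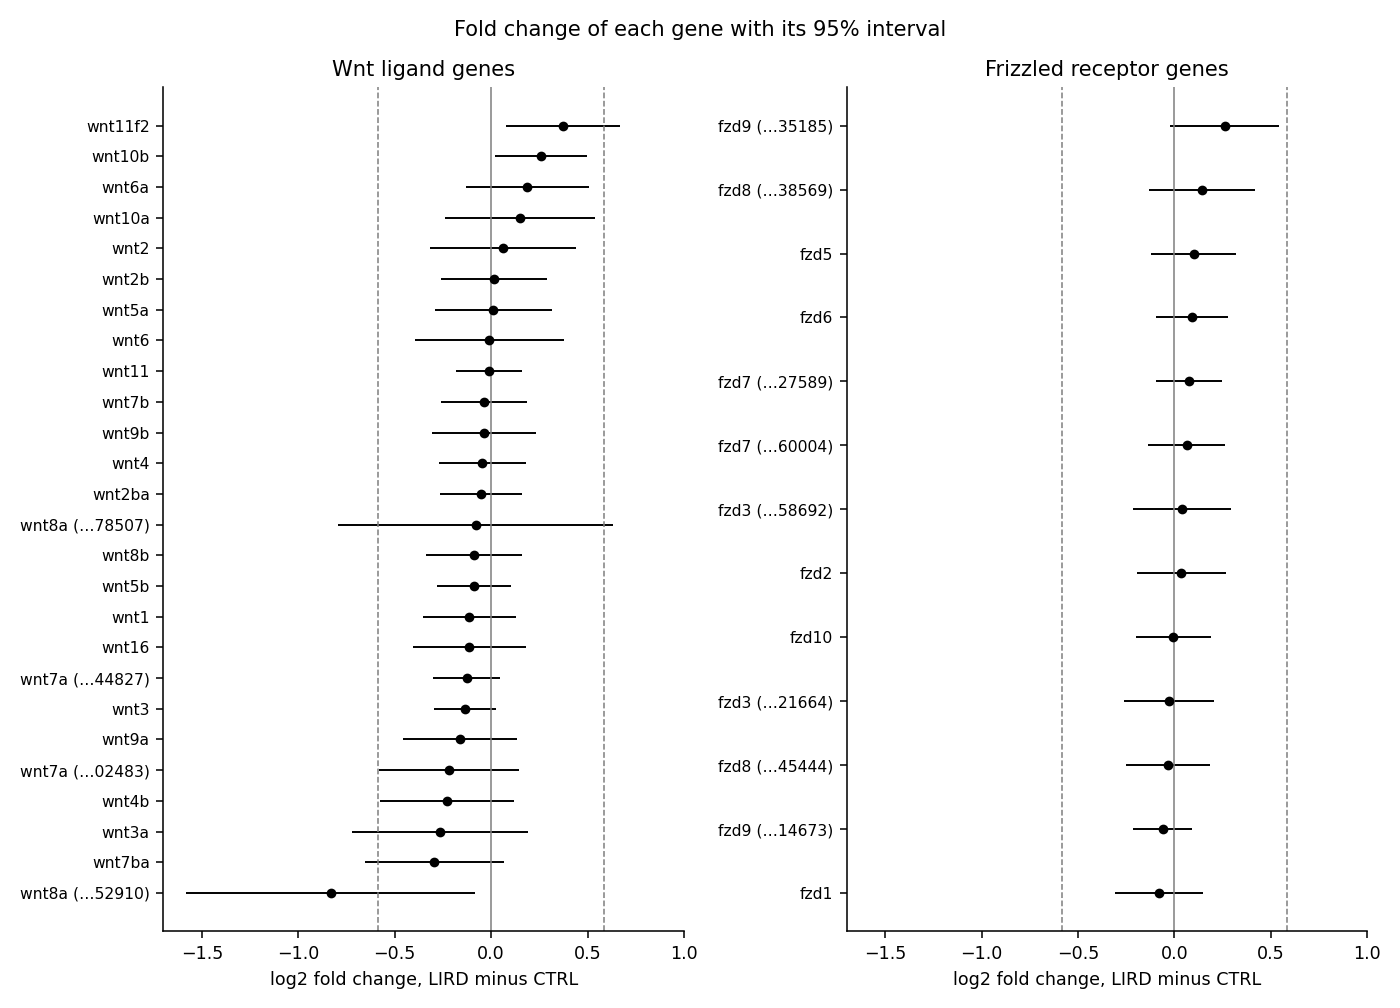
Log2 fold change of each Wnt ligand and Frizzled receptor gene, LIRD over CTRL, with points for the edgeR estimate and bars for the 95% confidence interval (dots in a name stand for the leading part of the Ensembl identifier). The 3 ligand intervals that exclude 0 are those of wnt11f2, wnt10b and a wnt8a copy, and all 13 receptor intervals include 0.

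Among the Frizzled receptors the 5 with the highest read levels were a fzd3 copy, both fzd7 copies, fzd2 and a fzd8 copy. Levels are CPM after trimmed-mean (TMM) scaling and are not divided by transcript length, so they are compared between libraries and not between genes. The fzd3 gene encodes a receptor known in mouse for axon guidance. Its copy ENSDARG00000021664 had 55.0 CPM in LIRD replicate 1, a median of 83.8 and 98.7 CPM in LIRD replicate 10, against 68.7 CPM (replicate 8), a median of 84.7 and 87.0 CPM (replicate 11) in CTRL. The LIRD values lay on both sides of the CTRL range, with 4 libraries above all 9 CTRL libraries and 2 below them. The log2 fold change was -0.03 ± 0.11 (SE, edgeR FDR 0.94).

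The other fzd3 copy, ENSDARG00000058692, ran from 13.8 CPM (replicate 1) through a median of 20.6 to 24.95 CPM (replicate 11) in LIRD, against 16.7 (replicate 3), 19.1 and 21.7 CPM (replicate 6) in CTRL. Again 4 LIRD libraries lay above every CTRL library and 3 lay below, with a log2 fold change of 0.04 ± 0.12 (SE, edgeR FDR 0.92). For both copies the same LIRD libraries were low (replicates 1, 2, 4 and 9) and the same were high (replicates 5, 6, 10 and 11), and no LIRD library fell between 74.8 and 92.9 CPM for the first copy. The 4 low libraries had TMM factors of 0.840, 0.941, 0.824 and 0.880, and the 4 high ones had 1.05, 1.16, 1.06 and 1.05. CTRL replicates 8 and 10 were lowest for the first copy, with 68.7 and 71.9 CPM, and had the lowest CTRL factors, 0.915 and 0.908. CTRL replicate 1 also had a factor under 1, 0.990, but 85.5 CPM of the first copy. For the second copy the lowest CTRL library was replicate 3, whose factor was 1.02. A TMM factor under 1 means that a few abundant transcripts took a larger share of that library, and its part in the fzd3 levels was not tested. The 4 low LIRD libraries also had the highest LIRD sums of skin genes and of pancreas and liver genes. In CTRL, replicates 1, 2, 8 and 10 had the highest pancreas and liver sums, 4245 to 4655 CPM. Of these, replicates 1 and 2 had 85.5 and 86.4 CPM of the first copy, near the top of the CTRL range. The part of these tissues in the fzd3 levels was not tested.

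**Figure D2:**
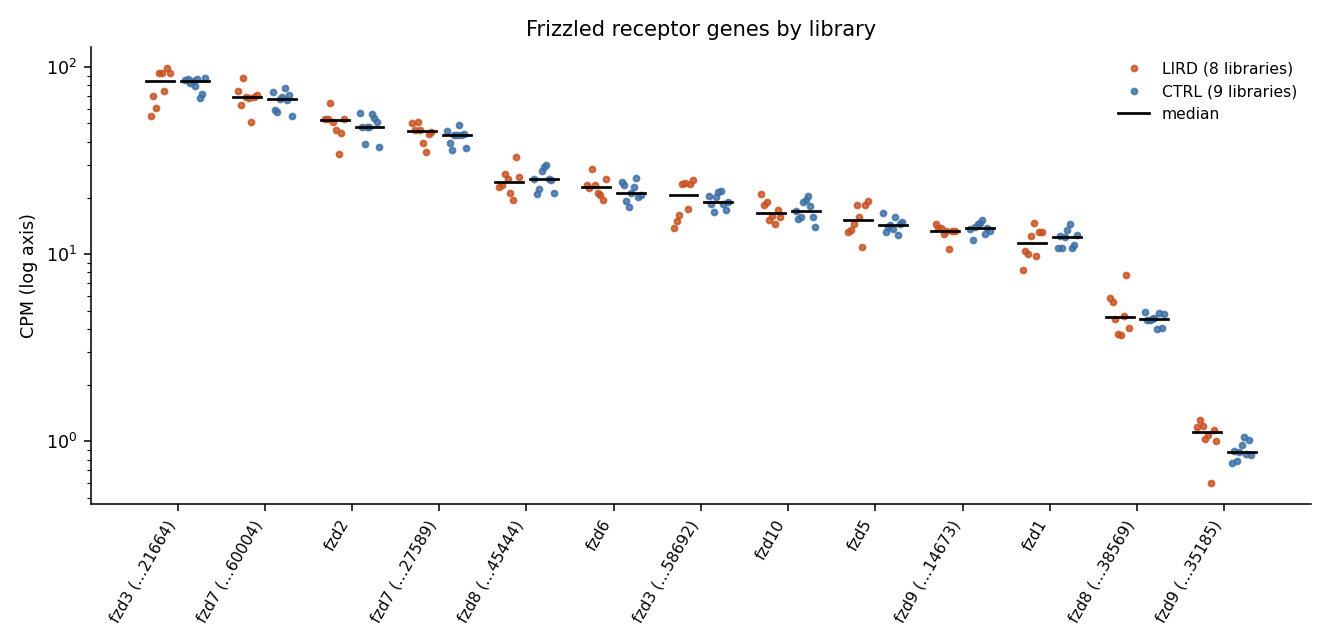
CPM on a log axis of the 13 Frizzled receptor genes in each library, with 8 LIRD libraries to the left of 9 CTRL libraries and a bar at each group's median; dots in a name stand for the leading part of the Ensembl identifier. The groups overlap for every receptor, and the fzd3 copies show LIRD points above and below the whole CTRL range.

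The fzd7 and fzd2 genes encode receptors known in zebrafish for gastrulation movements and for Wnt5-type signaling. The fzd7 copy ENSDARG00000060004 had 51.0 CPM (replicate 9), a median of 69.3 and 87.0 CPM (replicate 4) in LIRD, against 54.5 (replicate 11), 67.8 and 76.9 CPM (replicate 6) in CTRL, and its log2 fold change was 0.06 ± 0.09 (SE, edgeR FDR 0.81). The copy ENSDARG00000027589 had 35.3 CPM (replicate 9), a median of 45.4 and 51.0 CPM (replicate 4) in LIRD, against 36.2 (replicate 3), 43.2 and 49.0 CPM (replicate 6) in CTRL, with a log2 fold change of 0.07 ± 0.08 (SE, edgeR FDR 0.76). For both copies LIRD replicate 9 was the lowest library of all 17 and LIRD replicate 4 the highest. The same pair of libraries bounded fzd2, which had 34.4 CPM (replicate 9), a median of 51.8 and 64.5 CPM (replicate 4) in LIRD, against 37.3 (replicate 11), 48.03 and 56.7 CPM (replicate 1) in CTRL. Its log2 fold change was 0.04 ± 0.11 (SE, edgeR FDR 0.92).

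The fzd8 genes encode receptors expressed in the developing forebrain. The copy ENSDARG00000045444 had 19.4 CPM (replicate 9), a median of 24.2 and 33.1 CPM (replicate 10) in LIRD, against 20.9 (replicate 2), 25.2 and 30.0 CPM (replicate 6) in CTRL, and the groups overlapped almost fully (log2 fold change -0.03 ± 0.10, SE, edgeR FDR 0.92). The less read copy ENSDARG00000038569 stayed between 3.99 and 4.90 CPM in CTRL but spread from 3.70 to 7.73 CPM in LIRD. There, replicates 10, 1 and 2 were above all CTRL libraries, and replicates 6 and 5 were below them. Its log2 fold change was 0.14 ± 0.13 (SE, edgeR FDR 0.72).

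None of the remaining receptors passed the test. The fzd5 gene, whose product is needed in the eye field and the optic cup, had 10.9 to 19.1 CPM in LIRD (median 15.1) and 12.7 to 16.7 CPM in CTRL (median 14.4), with a log2 fold change of 0.10. Those of fzd6, a polarity receptor of mouse hair and inner ear, fzd10 and fzd1 were 0.09, -0.01 and -0.08. The fzd9 copy ENSDARG00000035185 had the largest receptor value, 0.26 ± 0.13 (SE, edgeR unadjusted p = 0.067, FDR 0.68). It had 0.599 CPM (replicate 9), a median of 1.12 and 1.31 CPM (replicate 2) in LIRD, against 0.769 (replicate 1), 0.874 and 1.06 CPM (replicate 6) in CTRL. Its log2 fold change was 0.60 between replicates 1 and 2 of each group and 0.15 among the other libraries. Altogether 5 LIRD libraries lay above the CTRL range while LIRD replicate 9 lay below it. The other fzd9 copy, ENSDARG00000014673, went the other way by sign (-0.06), with LIRD replicate 9 again the lowest of its group at 10.7 CPM.

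Among the ligands, the 5 with the highest read levels were wnt11, wnt9b, a wnt7a copy, wnt5b and wnt7b. The wnt11 gene encodes a ligand of the branch that steers cell movement. It had 36.2 CPM (replicate 10), a median of 47.8 and 55.7 CPM (replicate 1) in LIRD, against 41.7 (replicate 11), 46.3 and 52.8 CPM (replicate 10) in CTRL, a log2 fold change of -0.01 ± 0.08 (SE, edgeR FDR 0.96). This was among the narrowest intervals of the family, -0.18 to 0.16. Wnt9b, in mouse a signal for kidney tubules, was the most uneven of the 5: it had 19.3 CPM (replicate 4), a median of 34.0 and 47.0 CPM (replicate 2) in LIRD, against 28.1 (replicate 8), 34.5 and 36.3 CPM (replicate 2) in CTRL. With 3 LIRD libraries above and 3 below the whole CTRL range, its log2 fold change was -0.04 ± 0.13 (SE, edgeR FDR 0.92).

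Wnt7a and wnt7b ligands are known in mouse for directing vessel growth and barrier formation in the brain. The wnt7a copy ENSDARG00000044827 had 18.6 CPM (replicate 4), a median of 21.01 and 23.5 CPM (replicate 6) in LIRD, against 19.1 (replicate 2), 23.9 and 27.2 CPM (replicate 5) in CTRL. All 8 LIRD libraries lay under the CTRL median, yet only 1 lay under the lowest CTRL library, and the log2 fold change of -0.13 ± 0.08 did not pass (SE, edgeR FDR 0.70). Wnt7b had 4.80 CPM (replicate 10), a median of 6.92 and 8.30 CPM (replicate 1) in LIRD, against 6.14 (replicate 1), 6.99 and 7.98 CPM (replicate 10) in CTRL, with a log2 fold change of -0.04 ± 0.11 (SE, edgeR FDR 0.91). Wnt5b, the pipetail gene of zebrafish, which acts in body axis extension, had 11.3 CPM (replicate 2), a median of 13.1 and 16.2 CPM (replicate 11) in LIRD, against 12.4 (replicate 8), 14.6 and 17.8 CPM (replicate 6) in CTRL. Here 3 LIRD libraries were under the CTRL range and none above it, and the log2 fold change was -0.09 ± 0.09 (SE, edgeR FDR 0.74).

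**Figure D3:**
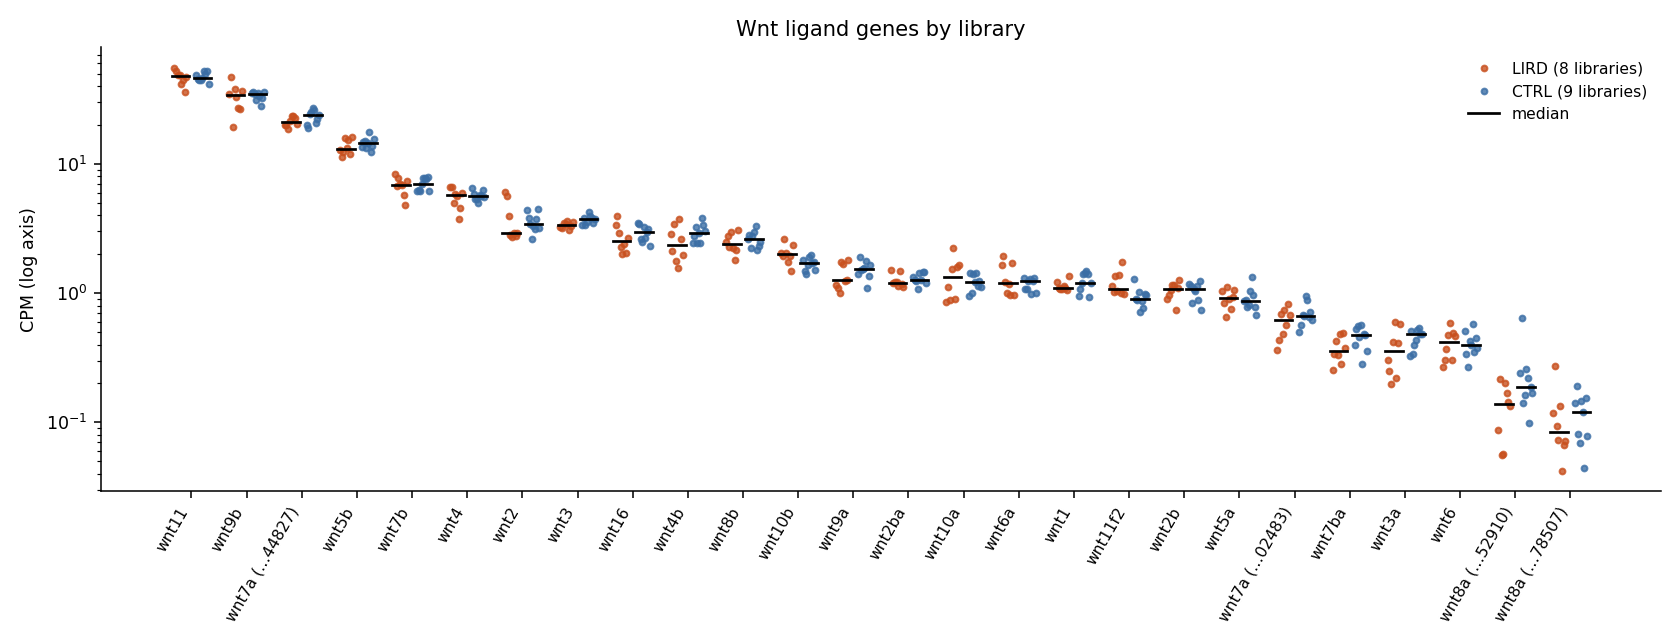
CPM on a log axis of the 26 Wnt ligand genes in each library, with 8 LIRD libraries to the left of 9 CTRL libraries and a bar at each group's median; dots in a name stand for the leading part of the Ensembl identifier. The groups overlap for every ligand, and the scatter widens toward the wnt8a copies, which had between 4 and 74 counts a library.

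Each of the 3 ligands with an unadjusted p under 0.05 failed the adjustment over all genes. Wnt11f2, the silberblick gene of zebrafish, which drives convergence of the midline tissues, had 0.985 CPM (replicate 11), a median of 1.08 and 1.74 CPM (replicate 10) in LIRD, against 0.711 (replicate 5), 0.898 and 1.30 CPM (replicate 1) in CTRL. Each of the 8 LIRD libraries exceeded the median of CTRL, and 3 exceeded its highest library. The log2 fold change was 0.37 ± 0.14 (SE, interval 0.08 to 0.67, edgeR unadjusted p = 0.017, FDR 0.53). Between replicates 1 and 2 of each group alone it was 0.00, and among the other libraries 0.49.

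Wnt10b, which in mouse favours bone over fat formation, had 1.48 CPM (replicate 10), a median of 2.00 and 2.63 CPM (replicate 4) in LIRD, against 1.405 (replicate 3), 1.72 and 1.98 CPM (replicate 6) in CTRL. LIRD libraries lay above the CTRL median in 7 of 8 cases and above the CTRL range in 4, a log2 fold change of 0.26 ± 0.11 (SE, interval 0.02 to 0.50, edgeR unadjusted p = 0.035, FDR 0.62). The value was nearly the same in replicates 1 and 2 (0.30) and in the others (0.25).

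Wnt8a patterns ventral and lateral mesoderm in the zebrafish embryo. Its copy ENSDARG00000052910 had 0.0565 CPM (replicate 4), a median of 0.139 and 0.218 CPM (replicate 2) in LIRD, against 0.0993 (replicate 8), 0.186 and 0.639 CPM (replicate 2) in CTRL. The log2 fold change of -0.83 ± 0.36 was the largest in size of any member (SE, interval -1.58 to -0.08, edgeR unadjusted p = 0.031, FDR 0.61). CTRL replicate 2 stood far above the other CTRL libraries, of which the highest had 0.257 CPM, and leaving that library out gave a log2 fold change of -0.48. Between replicates 1 and 2 of each group it was -1.60, and among the other libraries -0.49. The other copy, ENSDARG00000078507, had 0.042 to 0.273 CPM in LIRD and 0.0441 to 0.190 CPM in CTRL (log2 fold change -0.08), and replicate 2 was its highest library in both groups.

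The remaining 18 ligands were described by their direction. Some ligands known for β-catenin signaling in the embryo come first, an incomplete set from which no common direction is read. Wnt1, the midbrain and hindbrain boundary signal, had a log2 fold change of -0.11. Wnt3 had -0.14, wnt3a -0.26 and wnt8b, a forebrain signal of zebrafish, -0.09. Wnt3 was the tightest of these: all 8 LIRD libraries (3.06 to 3.63 CPM) lay under the CTRL median of 3.72 CPM and 4 lay under the lowest CTRL library, though its interval of -0.30 to 0.02 included 0 (edgeR FDR 0.69). Wnt2, wnt2b and wnt2ba, of the group in which a ligand specifies the liver in zebrafish, had 0.06, 0.01 and -0.05. Wnt16, which in zebrafish acts upstream of blood stem cell formation, had -0.11.

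Wnt4, a kidney and gonad signal in mouse, and wnt4b had log2 fold changes of -0.05 and -0.23. Those of wnt5a, wnt6, wnt6a, wnt9a and wnt10a were 0.01, -0.01, 0.19, -0.16 and 0.15. The second wnt7a copy, ENSDARG00000002483, and wnt7ba had -0.22 and -0.29, so that every row of the wnt7 group was negative by sign and none passed. Between replicates 1 and 2 of each group alone, wnt7b and the first wnt7a copy were positive, at 0.29 and 0.05. The edgeR FDR of these 17 ligands and of the second wnt8a copy lay between 0.69 and 0.99.

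LIRD libraries varied more than CTRL libraries. The SD of log2 CPM was larger in LIRD for 13 of 13 receptors and 20 of 26 ligands, together 84.6% of members, against 84.9% of all genes tested, so the members' share lay at the background. The median ratio of the SDs (LIRD over CTRL) was 1.33 for the members and 1.61 for all genes. For 32 of the 39 members the lowest library of the 17 was a LIRD library, and for 27 the highest was too. LIRD replicate 9 was the lowest library for 7 of 13 receptors, and LIRD replicate 4 was the highest for 4 receptors and the lowest for 6 ligands. These counts of extremes were not computed over all genes, so they are not read as traits of the members.

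Copies that share a symbol were set against each other across libraries, to ask whether they vary together. Each library's log2 CPM was taken as its deviation from the mean of its group, and 8 pairs of genes were computed over 17 libraries with 100000 permutations. The permutations treated the libraries as exchangeable, although some resembled each other closely, so these p-values may be too small. Library composition shared by many genes was not separated from a relation between the 2 genes of a pair. The fzd7 copies followed each other (Pearson r = 0.892, permutation p = 1e-05, the smallest these permutations can give, adjusted 8e-05, Spearman rho = 0.863, permutation p = 5e-05, adjusted 0.0002). Without the 2 libraries farthest from the median r was 0.814, and within LIRD and CTRL it was 0.832 and 0.976. For the fzd3 copies the LIRD libraries fell into a low and a high set, so that no pooled r is given and the relation could not be tested. As a description, r was 0.953 within LIRD, where it spans that split, and 0.400 within CTRL.

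The fzd9 copies had r = 0.761 (permutation p = 0.00131, adjusted 0.00349, rho = 0.632, permutation p = 0.00802, adjusted 0.016, r without the 2 farthest 0.603), with 0.958 in LIRD and 0.408 in CTRL. For the fzd8 copies no relation passed the test: r was 0.302 (permutation p = 0.241, adjusted 0.275, rho = 0.049, permutation p = 0.855, adjusted 0.855). This r turned to -0.301 without the 2 farthest libraries, with 0.508 in LIRD and -0.313 in CTRL. LIRD replicate 10 was the highest library for both fzd8 copies. The wnt7a and wnt8a copies had r = 0.570 each (permutation p = 0.0171 and 0.017, adjusted 0.0228 for both, rho = 0.645 and 0.493, permutation p = 0.00616 and 0.0469, adjusted 0.016 and 0.0625, r without the 2 farthest 0.581 and 0.393). Within LIRD and CTRL r was 0.364 and 0.810 for wnt7a, and 0.311 and 0.839 for wnt8a. Among the 13 libraries other than replicates 1 and 2, r was 0.932 for fzd7, 0.864 for fzd9, 0.425 for fzd8, 0.329 for wnt7a and 0.335 for wnt8a. In 15 libraries, without replicate 11 of either group, r was 0.879 for fzd7, 0.762 for fzd9 and 0.382 for fzd8. For wnt7a it was 0.607 and for wnt8a 0.579. How reads that map to both copies of a symbol were counted is not given in the sources used here, so shared reads cannot be told apart from shared expression.

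**Figure D4:**
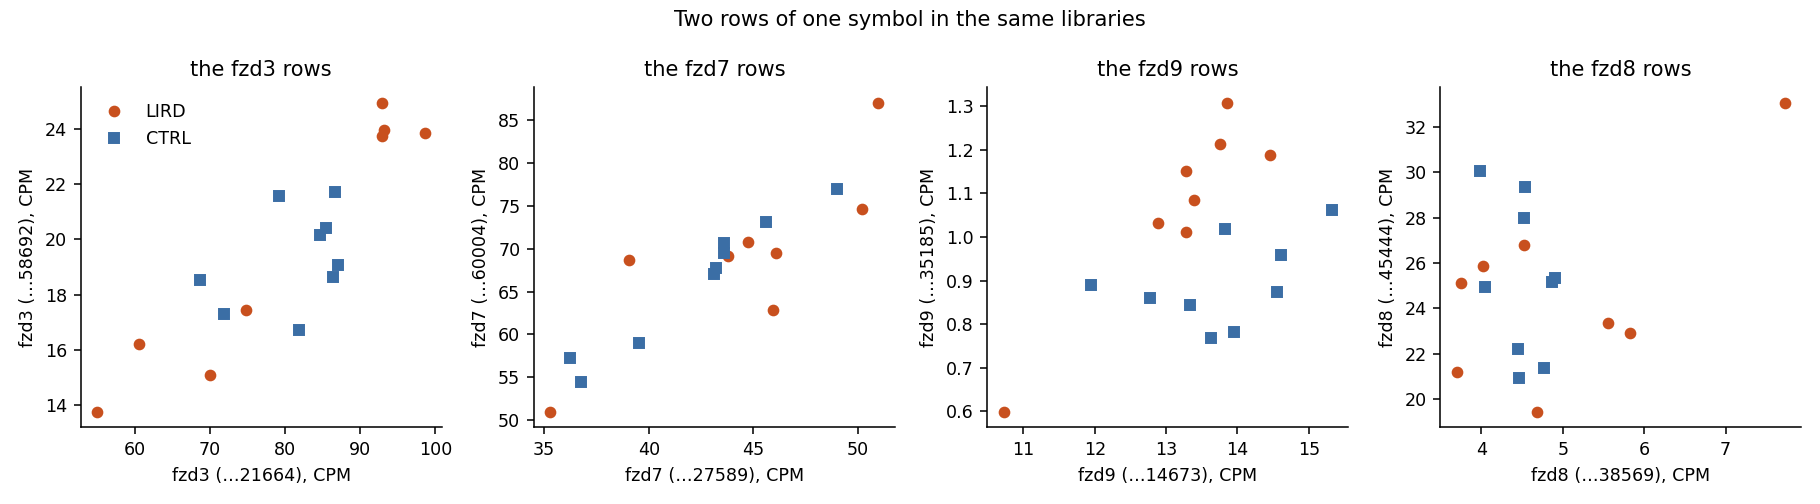
CPM of the copies of fzd3, fzd7, fzd9 and fzd8 plotted against each other, one point a library, with LIRD and CTRL libraries in different colours. The fzd7 copies lie along one line in both groups, and LIRD points of fzd3 lie below and above the CTRL points. Computed on deviations of log2 CPM from group means and not on the plotted CPM, r was 0.892 for fzd7. In the same way r was 0.302 for fzd8, which did not pass the test.

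Neighbouring ligand genes were the other pairs. In the GRCz12tu annotation wnt3a lies next to wnt9a on chromosome 2 and wnt10b next to wnt1 on chromosome 23. In the first pair the same 4 LIRD libraries (replicates 1, 2, 4 and 9) were the lowest of LIRD for both genes. They had 0.198 to 0.301 CPM of wnt3a and 0.997 to 1.25 CPM of wnt9a. The other LIRD libraries had 0.412 to 0.601 CPM of wnt3a and 1.27 to 1.81 CPM of wnt9a. For this reason no pooled r is given, and the relation could not be tested. As a description, r was 0.881 within LIRD, where it spans that split, and 0.062 within CTRL. The second pair had r = 0.276 (permutation p = 0.283, adjusted 0.283, rho = 0.255, permutation p = 0.321, adjusted 0.367, r without the 2 farthest 0.357, and 0.339 in the 13 libraries other than replicates 1 and 2). The LIRD libraries lowest for wnt3a (replicates 1, 2, 4 and 9, at 0.198 to 0.301 CPM) were those with TMM factors under 1. The part of this in the relation of wnt3a to wnt9a was not tested.

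Library names carry a running number, up to 10 for replicates 1 and 2 of each group and from 11 for the other 13 libraries, and what the number stands for is not given in the sources used here. For both fzd3 copies the fold change had opposite signs in the 2 sets, though the difference did not pass the adjustment. This comparison was chosen after the data were seen. LIRD replicates 1 and 2 belong to the 4 LIRD libraries that were low for both copies. The other low ones, LIRD replicates 4 and 9, had 60.5 and 74.8 CPM of ENSDARG00000021664. In replicates 1 and 2 the log2 fold changes were -0.45 (ENSDARG00000021664) and -0.42 (ENSDARG00000058692), and in the other libraries 0.10 and 0.17. The difference between these fold changes was -0.56 ± 0.23 for the first (SE, edgeR unadjusted p = 0.025, FDR 0.26) and -0.61 ± 0.23 for the second (SE, edgeR unadjusted p = 0.016, FDR 0.25). For wnt2 the difference had the opposite sign, 0.70 ± 0.26 (SE, edgeR unadjusted p = 0.016, FDR 0.25). Wnt2 had 6.07 and 5.68 CPM in LIRD replicates 1 and 2, 2.695 to 3.94 CPM in the other LIRD libraries and 2.60 to 4.50 CPM in CTRL. These were 3 of the 39 members, a share under the 16.8% of all genes with an unadjusted p under 0.05 for this difference. No gene had an FDR under 0.05, so the difference did not pass for any member.

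Other genes of the pathway were read as background to the ligands and receptors. Of 90 listed names 82 rows were tested and 0 were called by edgeR or DESeq2, and 4 (4.88%) had an unadjusted p under 0.05, against 7.64% of all genes. All 4 were lower in LIRD, a direction in which 2.74% of all genes had such a p. Of the 82 rows 21 were positive and 61 negative by sign, with a median log2 fold change of -0.05, against a median of 0.02 over all genes. The 4 genes of acylation, its removal (notum1b) and secretion split 1 to 3 (positive to negative). The 7 genes listed as co-receptors split 0 to 7. The 14 genes listed as secreted inhibitors, among them the membrane inhibitor apcdd1l, split 7 to 7. The 6 genes of the R-spondin axis split 1 to 5. The 22 cytoplasmic and nuclear genes split 4 to 18, the 12 target genes 1 to 11 and the 17 planar polarity genes 7 to 10. The median log2 fold changes of these lists lay between -0.12 for the R-spondin axis and the targets and -0.00 for the secreted inhibitors. All 7 splits were the same under upper-quartile scaling and DESeq2's size factors, which shift all genes nearly alike. Without replicates 1 and 2 of each group, lrp5, lrp6, ror2 and kremen1 were positive (0.06, 0.10, 0.01 and 0.09). Ror1, ryk and ptk7 stayed negative there. In replicates 1 and 2 alone all 7 of these were negative. Signs also changed in the cytoplasmic and nuclear list and the planar polarity list. Without replicates 1 and 2 every target gene kept its sign. Leaning of a list toward one sign was not tested.

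**Figure D5:**
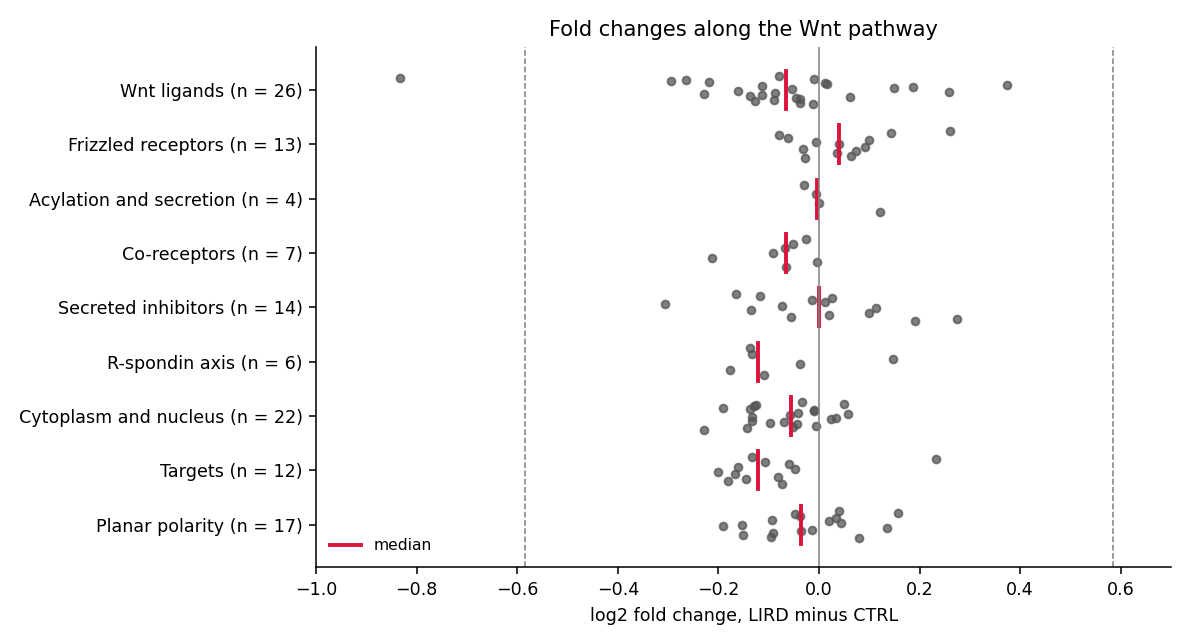
Log2 fold change, LIRD over CTRL, of each gene in the ligand, receptor and pathway lists, one point a gene, with a bar at each list's median. Every list's median lies between -0.12 and 0.04, and no gene passed the call.

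Of the 12 target genes 11 were negative by sign, and 2 had an unadjusted p under 0.05. Axin2, a target and brake of β-catenin signaling, had 39.9 CPM (replicate 9), a median of 56.5 and 62.9 CPM (replicate 10) in LIRD, against 50.9 (replicate 8), 54.3 and 65.0 CPM (replicate 4) in CTRL (log2 fold change -0.07 ± 0.08, SE, edgeR FDR 0.76). Lef1, which binds DNA with β-catenin, had 44.2 CPM (replicate 2), a median of 48.1 and 64.5 CPM (replicate 11) in LIRD, against 52.3 (replicate 10), 56.5 and 69.5 CPM (replicate 6) in CTRL. Although 6 of 8 LIRD libraries lay under the CTRL range, LIRD replicate 11 lay inside it near the top, and the log2 fold change of -0.18 ± 0.09 did not pass (SE, edgeR unadjusted p = 0.048, FDR 0.65).

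The other pathway genes with an unadjusted p under 0.05 were also lower in LIRD by sign. Apcdd1l, a membrane inhibitor of Wnt signaling, had 10.2 to 13.9 CPM in LIRD and 11.8 to 14.5 CPM in CTRL (log2 fold change -0.17, edgeR FDR 0.63), with 5 LIRD libraries under the CTRL range. Rspo2, a secreted protein that keeps Frizzled receptors at the surface, had 7.96 to 11.2 CPM in LIRD and 9.89 to 12.03 CPM in CTRL (log2 fold change -0.18, edgeR FDR 0.63), again with 5 libraries under the CTRL range. The myc copy ENSDARG00000007241, a growth regulator, had 36.5 to 45.5 CPM in LIRD and 41.2 to 55.1 CPM in CTRL (log2 fold change -0.16, edgeR FDR 0.63). The other myc copy, ENSDARG00000045695, had 39.9 to 68.5 CPM in LIRD and 45.9 to 73.4 CPM in CTRL (log2 fold change -0.06, edgeR FDR 0.87).

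The carriers of the signal also overlapped between groups. Ctnnb1, which encodes β-catenin, had 501 to 717 CPM in LIRD (median 581) and 551 to 699 CPM in CTRL (median 623), a log2 fold change of -0.04 (edgeR FDR 0.89). The co-receptor gene lrp6 had 36.0 to 58.2 CPM in LIRD and 42.1 to 55.0 CPM in CTRL (log2 fold change -0.00, edgeR FDR 0.99). Its relative lrp5 had 47.6 to 123 CPM in LIRD and 72.8 to 104 CPM in CTRL (log2 fold change -0.07, edgeR FDR 0.90), with LIRD replicate 1 the lowest library of all for both co-receptors.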

How the data were processed

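Poly(A)+ strand-specific libraries were sequenced by the authors on a NovaSeq. Reads were trimmed with Trimmomatic 0.39, aligned with STAR to GRCz11 (Ensembl release 108) and counted with featureCounts; version 2.7.9a of STAR and 2.0.1 of Subread are those of the submitters' notes. The deposited values are raw counts per gene, not normalized. The authors left out libraries that stood apart in a principal component analysis, which narrows the spread seen; of 23 samples listed, 6 are not analysed here. The naming table gave a symbol to 23499 of 25281 identifiers (93.0%).

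Counts were tested with edgeR 4.0.16 in R 4.3.3 (filterByExpr, TMM factors, robust quasi-likelihood fit of LIRD against CTRL, Benjamini-Hochberg adjustment over all 22503 genes tested). CPM used TMM-scaled library sizes, and log2 CPM a prior count of 2. DESeq2 1.42.0 and limma 3.58.1 (voom) were alternatives, with other scalings, filters, thresholds, library subsets and leaving out each library. Scripts were tested on simulated data. Members given in full are those with an unadjusted p under 0.05 or a change over 1.5-fold, and the 5 ligands and 5 receptors with the highest mean CPM; of the pathway genes, those with an unadjusted p under 0.05 and axin2, lef1, ctnnb1, lrp5 and lrp6. Members, lists and rules were chosen with earlier results of these data known.

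LIRD replicates 5 and 11, and CTRL replicates 3 and 11, were far closer to each other than other pairs (chi-square per degree of freedom 12.0 and 15.0, the next pair 73.9), but differed beyond sampling noise and were kept apart. The labels call libraries biological replicates, and the tests treated all 17 as independent. If the close pairs are not independent, the p-values may be too small and the intervals too narrow. With these pairs added up 5 genes were called, against 9, and 0 members in both.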

Additional observations from a re-analysis of the deposited data

Results flagged for a closer look

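Of 78 sets of libraries (39 members in 2 groups), 4 held a library set apart by a gap that took up more than the critical share of the group's range (0.526 for 8 LIRD libraries, 0.493 for 9 CTRL libraries). Chance alone gives about 1 in 20, so 4 such sets is the number that chance would give, and they are listed as values only. LIRD replicate 9 was low for both copies of fzd9, at 10.7 CPM against 12.9 CPM or more in the other LIRD libraries for ENSDARG00000014673, and at 0.599 CPM against 1.01 CPM or more for ENSDARG00000035185. Both wnt8a copies had a high replicate 2: ENSDARG00000078507 reached 0.273 CPM in LIRD replicate 2, where the next LIRD library had 0.134 CPM, and ENSDARG00000052910 reached 0.639 CPM in CTRL replicate 2, where the next CTRL library had 0.257 CPM.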

How the results depend on the processing

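No member was called in any of the settings run, including DESeq2, limma-voom, other scalings and filters, the division by library number and leaving out each library. The smallest FDR of any member was 0.059 (fzd3, ENSDARG00000058692, replicates 1 and 2 of each group alone). Members with an unadjusted p under 0.05 were 3 of 39, beside 7.64% of all genes. They were 5 in replicates 1 and 2 alone (39.1% of all genes there) and 1 of 38 in the other 13 libraries (4.38%). Leaving out 1 library gave 1 to 5 members, beside 5.4% to 13% of all genes. It gave 1 without LIRD replicate 4 (5.8%), LIRD replicate 5 (8.45%) or CTRL replicate 2 (5.75%), and 5 of 38 without CTRL replicate 6 (6.22%). The count over all genes was 9, against 78 by DESeq2, 15 by limma-voom, 14 when every library had to hold at least 10 counts of a gene (37 members tested), 17 with the library number division as a covariate, 3891 in replicates 1 and 2 alone, 4 in the other 13 libraries, 5 with near-identical libraries added up, and 7 to 39 on leaving out 1 library (39 without LIRD replicate 10, 14 without CTRL replicate 8). The cause of these shifts was not tested. The ligand median log2 fold change lay between -0.115 and 0.026, positive in replicates 1 and 2 alone, and the receptor median between -0.011 and 0.099, negative with near-identical libraries added up. Of 39 members 22 changed sign in at least 1 of 28 settings, and 17 kept it.

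Replicate numbers did not pair the libraries: deviations of same-numbered LIRD and CTRL libraries correlated between -0.393 and 0.382, and 2 of 7 matched best with their own number. With the replicate number as a block 0 genes were called, against 4 in the same libraries without the block (chosen after seeing the data), and 3 members had an unadjusted p under 0.05 in both. Depth limits mainly the wnt8a copies, with 4 to 74 counts a library.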
